A study of Sus scrofa with 4 samples.

Results

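The receptors described here are those through which the ovary reads hormones of the pituitary, the hypothalamus and the thyroid: FSHR, LHCGR, PRLR, GHR, OXTR, GNRHR, THRA and THRB. They were matched by gene symbol, and were chosen with earlier results of these data known. Of these 8 genes, 7 had a row among the 22309 rows of the expression table; LHCGR was found through its Ensembl identifier, because the table gave it no symbol, and GNRHR, the receptor of gonadotropin-releasing hormone, matched no row and was not analysed here. Polyadenylated RNA was sequenced from pig ovaries (Sus scrofa) in diestrus, the luteal phase of the cycle. There were 2 libraries of wild type (WT) and 2 of leptin overexpression. The sows that overexpress leptin were of the F2 generation descended from males re-cloned from a leptin overexpression pig, C013, and Duroc/Landrace/Yorkshire females, and had been screened by PCR, qPCR and immunoblot. The promoter that drives the transgene, the descent and age of the control animals, and whether each library came from a separate animal were not given in the sources used here. The p-values therefore describe the spread among libraries, which may be technical.

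FSHR and LHCGR are G protein-coupled receptors that act mainly through Gs and cyclic AMP: FSHR on granulosa cells of growing follicles, and LHCGR on theca cells, on granulosa cells near ovulation and on luteal cells. OXTR couples mainly to Gq and calcium release. PRLR and GHR are cytokine receptors that signal through the kinase JAK2 and the transcription factors STAT5A and STAT5B. THRA and THRB are nuclear receptors that bind thyroid hormone and pair with retinoid X receptors on DNA.

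None of the 7 receptors measured differed between the genotypes past the threshold, an adjusted p of 0.05 in edgeR's quasi-likelihood test over all 13937 genes tested. All 7 passed the filter on low counts. Over all genes, 4 were called higher (0.0287% of those tested) and 0 lower (0%), so 0 of 7 receptors lies near the background. At an unadjusted edgeR p under 0.05 there were likewise 0 of 7 receptors, against 9.36% of all genes, and 0 of 7 were called by DESeq2 (2.19% of all genes) or limma-voom (0.00718%). The values of THRA and THRB were lower in both leptin overexpression libraries than in both WT libraries, and those of GHR were higher in CPM (counts scaled to the TMM-adjusted size of each library). That is 3 of 7 receptors without overlap, against 45.1% of all genes tested. For FSHR, LHCGR, OXTR and PRLR the groups overlapped in CPM. Among all genes tested, 22.9% did not overlap in the lower direction and 22.2% in the higher, so the 2 and 1 of 7 receptors are near that background. The median log2 fold change of the receptors, leptin overexpression minus WT, was -0.40, against -0.01 over all genes tested.

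**Figure D1:**
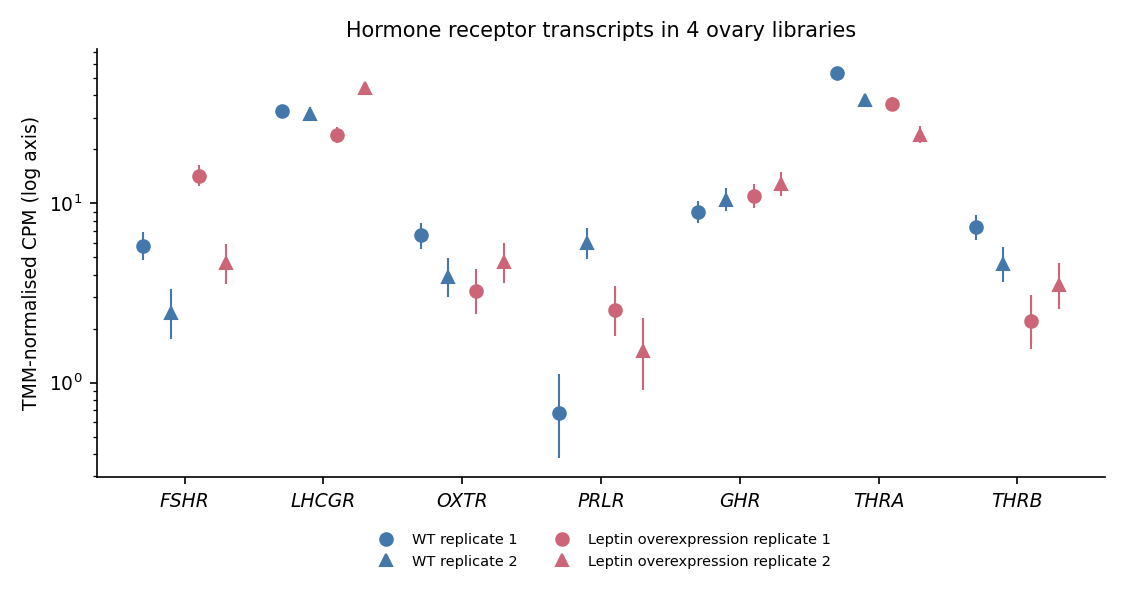
Level of each receptor in TMM-normalised CPM (log axis) in the 4 ovary libraries; vertical lines are exact Poisson 95% intervals, which cover counting error only. THRA and THRB are lower in both leptin overexpression libraries than in both WT libraries, while PRLR and FSHR differ widely within a genotype.

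The label of the treated group was checked first. LEP, the gene of leptin, had 0 and 3 counts in WT, then 55 and 124 counts in the libraries labelled leptin overexpression (edgeR adjusted p = 0.198). LEPR, its receptor, was at 2.63 and 26.5 CPM in WT, then 15.5 and 21.5 CPM under leptin overexpression, with WT replicate 1 alone low. Library totals were 16493113 to 16797511 counts, while the TMM factors ran from 1.34 in WT replicate 1 through 0.998 and 0.925 to 0.809 in leptin overexpression replicate 2. WT replicate 2 had a Pearson's r of 0.941 with leptin overexpression replicate 1, above the 0.917 between the WT libraries (across genes, which do not count as independent samples). Markers of ovarian cells were present: the summed level of 10 granulosa markers was 1992 to 2060 CPM, and that of 7 luteal markers, which do not include LHCGR or PRLR, 24782 CPM in WT replicate 1 and 51924 to 55553 CPM in the other libraries. All 8 oviduct epithelium markers with a row were lower in both leptin overexpression libraries, against 22.9% of all genes tested. Their summed levels were 523 and 254 CPM in WT, then 43.5 and 33.0 under leptin overexpression, and 0 of them were called (smallest edgeR adjusted p = 0.092). The pituitary genes POU1F1, GH1 and PRL were at 0 counts in all libraries. In bulk tissue, fewer cells of a type and less RNA per cell cannot be told apart.

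FSHR (ENSSSCG00000029084), the receptor through which follicle-stimulating hormone drives granulosa cells, had 128 and 41 counts in WT (replicate 1 first, as in all values that follow), then 219 and 62 counts under leptin overexpression. These are 5.81 and 2.45 CPM in WT, then 14.3 and 4.63 CPM under leptin overexpression. The highest value was leptin overexpression replicate 1 and the lowest WT replicate 2, and the second library of leptin overexpression lay between the WT libraries. The log2 fold change of FSHR was 1.19 (SE 0.68, 95% interval -0.36 to 2.75; edgeR adjusted p = 0.599), the highest of the 7 receptors. The libraries of a genotype differed by 2.37-fold in WT and 3.09-fold under leptin overexpression; of all genes tested, 14.2% and 8.84% had a larger ratio there. Without leptin overexpression replicate 1 the log2 fold change of FSHR was 0.16, and without WT replicate 1 it was 1.94. The summed level of the 10 markers of granulosa cells, which carry FSHR, was 2060 and 2055 CPM in WT against 2042 and 1992 under leptin overexpression. Single markers differed from that sum: FOXL2, a granulosa transcription factor, was at 8.62 and 9.07 CPM in WT, then 11.4 and 3.21 under leptin overexpression. AMH (34.9 and 24.4 CPM) and INHA (253 and 137.0 CPM) were likewise higher in the first leptin overexpression library than in the second. In WT, AMH was at 29.3 and 24.8 CPM and INHA at 565 and 300. FST, CDH2 and FOXO1 were also higher in the first leptin overexpression library. In WT they were higher in replicate 2, unlike FSHR. FST was at 44.1 and 176 CPM in WT, CDH2 at 56.8 and 66.7, and FOXO1 at 101 and 125. The remaining markers were lower in the first leptin overexpression library than in the second. These were NR5A2 (495 and 559 CPM), SERPINE2 (647 and 663), GATM (6.20 and 8.44) and GJA1 (296 and 342). In WT, NR5A2 and GATM were higher in replicate 1, and SERPINE2 and GJA1 in replicate 2. The part of granulosa cells in the values of FSHR was not tested.

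LHCGR (ENSSSCG00000008421), the receptor of luteinizing hormone that keeps the corpus luteum producing progesterone, had 719 and 529 counts in WT and 370 and 589 under leptin overexpression. In CPM these were 32.6 and 31.6 in WT and 24.2 and 44.0 under leptin overexpression. The WT libraries were nearly equal, and the leptin overexpression libraries lay on either side of them. The log2 fold change of LHCGR was 0.09 (SE 0.41, 95% interval -0.84 to 1.01; edgeR adjusted p = 0.95), an interval that holds both a decrease and an increase. It turned to -0.033 with upper-quartile factors, and to -0.41 without leptin overexpression replicate 2. The summed luteal markers were at 24782 CPM in WT replicate 1 and 55553 CPM in WT replicate 2, where LHCGR was nearly equal. The 9 theca markers summed to 6040 and 7703 CPM in WT, then 11397 and 6780 under leptin overexpression. The part of luteal and theca cells in the values of LHCGR was not tested.

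Set side by side per transcript length, LHCGR exceeded FSHR in all 4 libraries. The deposited FPKM, fragments scaled to transcript length and to the library's total, was 20.4 and 14.4 in WT and 10.2 and 16.3 under leptin overexpression for LHCGR. For FSHR it was 3.47 and 1.09 in WT and 5.91 and 1.67 under leptin overexpression. The ratio of LHCGR to FSHR was 5.89 and 13.2 in WT and 1.72 and 9.75 under leptin overexpression. The ratio overlapped between the genotypes and was lowest in leptin overexpression replicate 1, where FSHR was highest and LHCGR lowest.

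OXTR (ENSSSCG00000021585), the oxytocin receptor, known from uterine muscle and also present in the ovary, had 146 and 65 counts in WT and 50 and 63 under leptin overexpression. Its levels were 6.62 and 3.88 CPM in WT, then 3.26 and 4.71 CPM under leptin overexpression. WT replicate 1 was highest and the other 3 libraries lay close together, with Poisson 95% intervals that overlap (2.99 to 4.94 CPM in WT replicate 2, 2.42 to 4.30 and 3.62 to 6.02 under leptin overexpression). OXTR had a log2 fold change of -0.40 (SE 0.59, 95% interval -1.75 to 0.95; edgeR adjusted p = 0.829), and without WT replicate 1 it was 0.015. In FPKM its groups did not overlap, at 1.57 and 0.68 in WT against 0.53 and 0.67 under leptin overexpression. The second libraries of the genotypes were nearly equal there. The share of all genes without overlap in FPKM was not computed. On log2(FPKM + 1) the median log2 fold change of all genes was -0.30. Of 8 smooth muscle markers 0 were called (smallest edgeR adjusted p = 0.263), and the values of 6 were lower in both leptin overexpression libraries, against 22.9% of all genes, with summed levels of 1474 and 1654 CPM in WT, then 894 and 1097 under leptin overexpression. Their part in the values of OXTR was not tested.

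PRLR (ENSSSCG00000016830), the prolactin receptor, which takes part in luteal support, had 15 and 101 counts in WT and 39 and 20 under leptin overexpression. Its levels were 0.681 and 6.03 CPM in WT, then 2.55 and 1.49 CPM under leptin overexpression. WT replicate 1 held the lowest and WT replicate 2 the highest value, and both leptin overexpression libraries lay between them. The WT libraries differed by 8.86-fold, a ratio exceeded by 2.05% of all genes tested, and their Poisson 95% intervals (0.381 to 1.12 and 4.91 to 7.32 CPM) were far apart, so the gap exceeds counting error. PRLR had a log2 fold change of -0.72 (SE 0.98, 95% interval -2.95 to 1.51; edgeR adjusted p = 0.813). Leaving out WT replicate 1 gave -1.58 and leaving out WT replicate 2 gave 1.53, and it was 0.11 with limma-voom, so the direction of PRLR was not fixed by these libraries.

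GHR (ENSSSCG00000016866), the growth hormone receptor, varied least over the 4 libraries, with 198 and 176 counts in WT and 169 and 172 under leptin overexpression. In CPM the values were 8.98 and 10.5 in WT and 11.0 and 12.8 under leptin overexpression. The groups did not overlap, with higher values under leptin overexpression, but in FPKM they did not overlap in the opposite direction, at 3.89 and 3.52 in WT and 3.36 and 3.24 under leptin overexpression. GHR had a log2 fold change of 0.29 (SE 0.43, 95% interval -0.67 to 1.26; edgeR adjusted p = 0.823). On log2(FPKM + 1) it was -0.13, where the median of all genes was at -0.30, so relative to all genes GHR was higher on both scales. The libraries of a genotype differed by 1.17-fold in WT and 1.16-fold under leptin overexpression, against medians of 1.35-fold and 1.47-fold over all genes tested.

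THRA (ENSSSCG00000035969) and THRB (ENSSSCG00000036033), the receptors of thyroid hormone, both had their lowest values under leptin overexpression. THRA had 1173 and 635 counts in WT and 551 and 323 under leptin overexpression, or 53.2 and 37.9 CPM against 36.0 and 24.1 CPM. The groups did not overlap, though WT replicate 2 and leptin overexpression replicate 1 were close, with overlapping Poisson 95% intervals (35.0 to 41.0 and 33.0 to 39.1 CPM). The log2 fold change of THRA was -0.60 (SE 0.39, 95% interval -1.49 to 0.29; edgeR adjusted p = 0.617). It lay between -0.34 and -0.92 with each library left out, and was -0.93 on log2(FPKM + 1), where the median of all genes was -0.30. The order of THRA over the libraries was the same in counts, before scaling, as in CPM. This is also the order of the TMM factors given above, and their part in the values was not tested.

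THRB, the other thyroid hormone receptor, had 162 and 77 counts in WT and 34 and 47 under leptin overexpression. In CPM the values were 7.35 and 4.59 in WT and 2.22 and 3.51 under leptin overexpression, again without overlap of the groups. The log2 fold change of THRB was -1.06 (SE 0.61, 95% interval -2.45 to 0.32; edgeR adjusted p = 0.599), the lowest of the 7 receptors. It ran from -1.43 to -0.71 with each library left out. WT replicate 1 held the highest value of THRA, THRB and OXTR alike. The ratio of THRA to THRB in FPKM was 13.3 and 17.6 in WT and 29.5 and 12.4 under leptin overexpression, so THRA was above THRB per length in all 4 libraries and the ratio overlapped between the genotypes. Markers of several other cell types were lower in value alongside both receptors, with 0 called in any of these lists. Among all genes, 22.9% were lower without overlap. Lower without overlap were 5 of 6 surface epithelium markers with a row, all 8 of the oviduct (smallest edgeR adjusted p in either list 0.092), 6 of 8 of smooth muscle and 5 of 10 of leukocytes. The surface epithelium markers summed to 199 and 113 CPM in WT, then 24.2 and 86.2 under leptin overexpression, where EPCAM alone gave 57.1 CPM of the last value. The 11 oocyte markers, of which DAZL and OOSP2 were at 0, summed to 204 and 131 CPM, then 71.8 and 91.3; 2 of them were lower without overlap, and 7 of the 7 tested had a negative difference. The sums of these last 2 lists have the order of libraries seen for THRB. KIT alone gave 60.7 and 107 CPM of the oocyte sum in WT, then 50.1 and 66.5 under leptin overexpression. KIT was highest in WT replicate 2, and the order of the oocyte sum rests in part on it. Leukocyte markers summed to 171 and 162 CPM, then 114 and 92.3. The theca, granulosa, endothelial and luteal lists stood near or below the 22.9% of all genes. Of 9 theca markers 2 were lower and 1 higher without overlap, and of 10 granulosa markers 2 lower and 2 higher. Of 7 endothelial markers 2 were lower, and of 7 luteal markers 0 were lower and 1 higher. The part of these cell types in the values of THRA and THRB was not tested.

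**Figure D2:**
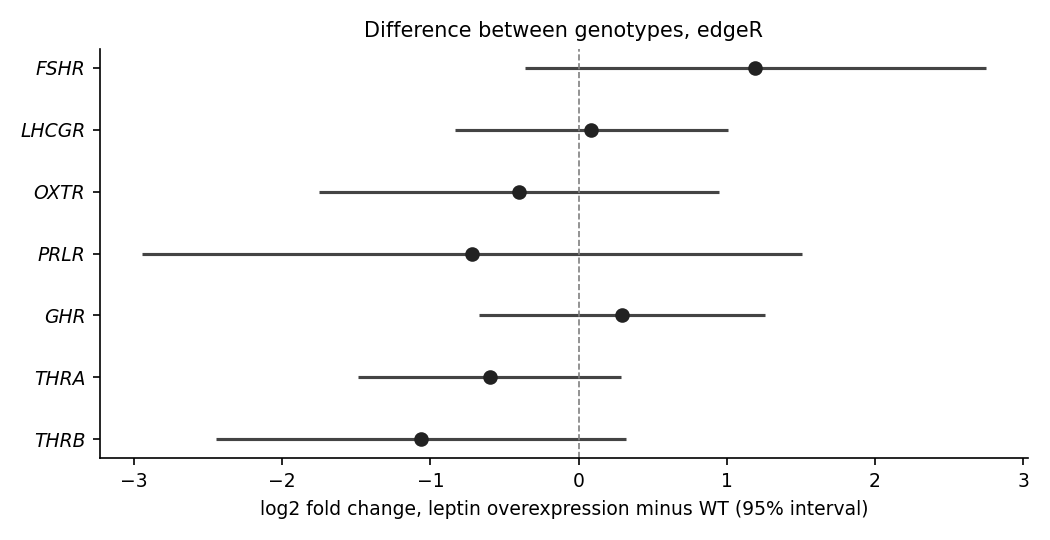
Log2 fold change of each receptor (points, leptin overexpression minus WT) with its 95% interval (lines) from edgeR's quasi-likelihood test over 13937 genes. All 7 intervals include 0; that of GHR spans -0.67 to 1.26 and that of PRLR -2.95 to 1.51.

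**Figure D3:**
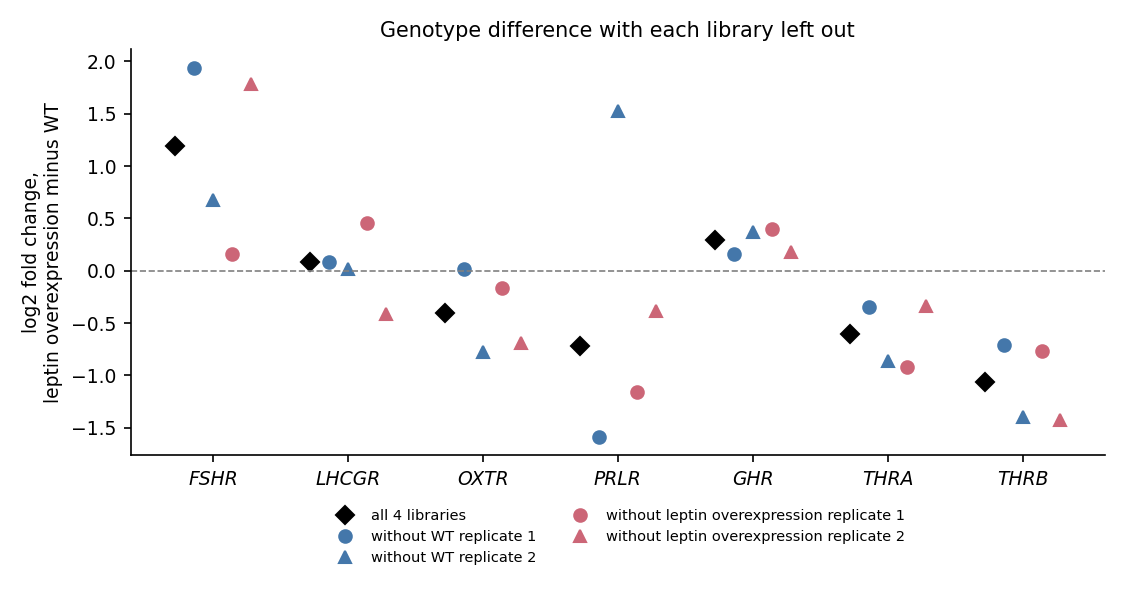
Log2 fold change of each receptor with all 4 libraries (black) and with each library left out. THRA, THRB, FSHR and GHR keep their sign in each of these fits, OXTR changes sign without WT replicate 1, PRLR without WT replicate 2 and LHCGR without leptin overexpression replicate 2.

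The rows of 2 receptors have close neighbours in the genome, and no source used here states if strand was used in counting. In the RefSeq annotation of Sscrofa11.1, THRA overlaps NR1D1, a clock repressor, and LHCGR overlaps GTF2A1L, a germ cell transcription factor subunit. NR1D1 was at 5.67 and 6.74 CPM in WT, then 8.62 and 4.11 under leptin overexpression, and GTF2A1L at 1.81 and 0.418 CPM in WT, then 0.522 and 0.523 under leptin overexpression. Both were far below their receptor neighbour in every library. THRA was the only receptor whose deposited counts were not whole numbers, in 4 of 4 libraries. How far this bears on its level was not tested. FSHR and LHCGR lie next to each other in the same annotation, and their values did not move together over the libraries.

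Ordered by FPKM, THRA (7.20 to 24.7) and LHCGR (10.2 to 20.4) were the highest in all 4 libraries and their ranges overlapped; THRA was first in WT replicate 1 and leptin overexpression replicate 1, and LHCGR in the other libraries. GHR (3.24 to 3.89) lay within the range of FSHR (1.09 to 5.91). OXTR (0.53 to 1.57), THRB (0.37 to 1.85) and PRLR (0.11 to 0.72) were lowest, with overlapping ranges. FSHR was above OXTR, THRB and PRLR in each library, although its range over the libraries reached down into those of OXTR and THRB; OXTR, THRB and PRLR changed places between libraries. Among all genes tested, LHCGR stood at the 66.9th to 77.5th percentile of FPKM and PRLR between percentiles 0.954 and 13.1.

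**Figure D4:**
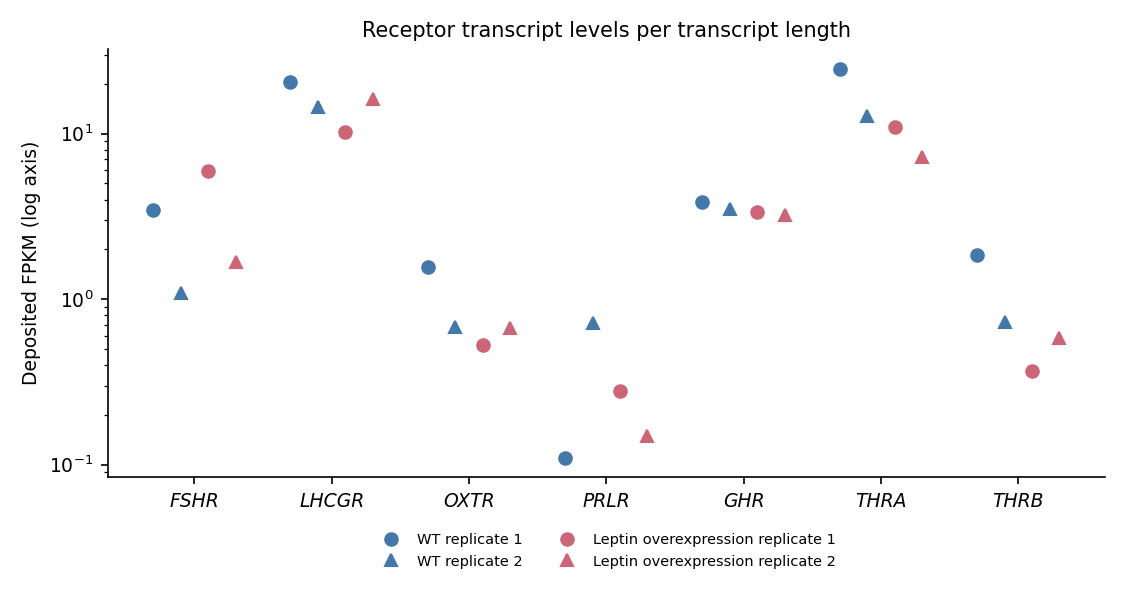
Deposited FPKM of each receptor (log axis) in the 4 libraries. LHCGR and THRA lie above the other 5 receptors in every library, and PRLR is lowest in every library except WT replicate 2.

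Of 11 genes for the hormones themselves, 7 had 0 counts in all 4 libraries: CGA, TSHB, PRL, GH1, GNRH1, KISS1 and AVP. With a floor of 3 counts, a count of 0 was taken to allow up to 0.136 to 0.224 CPM, depending on the library. This floor is not the exact Poisson interval used for the receptors. The remaining 4 had few counts: FSHB had 3 in leptin overexpression replicate 1, TRH 2 and 5 in WT and 2 and 0 under leptin overexpression, OXT 9 in WT replicate 1 only and LHB 55 in WT replicate 1 only (not a whole number before rounding; a further row with the same description, named otherwise in the reference, was not used). None of these 11 passed the filter, so no ligand was tested. In leptin overexpression replicate 2 all 11 were at 0.

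Other hormone receptors were mostly at low counts. Of 27 such genes 26 had a row, 7 were tested and 19 were not; the 19 had at most 45 counts in a library, and 4 of them 0 in all libraries. None of the 7 tested passed the edgeR threshold (smallest adjusted p = 0.433), and their median log2 fold change was -0.47. IGF1R, the receptor of insulin-like growth factor 1, was the most abundant, at 51.6 and 56.4 CPM in WT, then 47.3 and 22.1 under leptin overexpression. AVPR1A, a vasopressin receptor related to OXTR, was at 0.817 and 32.1 CPM in WT, then 39.9 and 24.0 under leptin overexpression. WT replicate 1 alone was low for AVPR1A, whereas it was the highest library for OXTR. GHSR, the ghrelin receptor, was at 18.3 and 27.2 CPM in WT, then 11.0 and 21.8 under leptin overexpression. PTH1R, the parathyroid hormone receptor, was the 1 gene of these 7 with an unadjusted edgeR p under 0.05, against 9.36% of all genes tested. It was at 9.44 and 8.89 CPM in WT, then 3.66 and 3.14 under leptin overexpression (difference -1.43 in log2, SE 0.51, edgeR adjusted p = 0.433).

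The cyclic AMP pathway after FSHR and LHCGR showed no call in either direction. Of 35 genes 34 were tested, 14 with higher and 20 with lower values, and their median log2 fold change was -0.10. GNAS, the Gs alpha subunit, was at 604 and 829 CPM in WT, then 879.7 and 946 under leptin overexpression. The regulatory subunits of protein kinase A, PRKAR1A and PRKAR2B, were also measured: 342 and 422 CPM in WT, 412 and 511 CPM under leptin overexpression for the first; 279 and 313 CPM, then 339 and 430.1 CPM, for the second. These 3 were the most abundant, and PRKAR1A overlapped between the genotypes. An unadjusted edgeR p under 0.05 was reached by 3 of 34, near the 9.36% of all genes tested. These were the adenylyl cyclase ADCY5 (a log2 fold change of -1.40), the cyclic AMP-activated exchange factor RAPGEF3 (-1.29) and the cyclic AMP-responsive transcription factor CREM (1.14). Their edgeR adjusted p-values were 0.452, 0.509 and 0.446.

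Gq and calcium genes after OXTR and GNRHR, 15 in all and all tested, likewise gave 0 calls, with 5 higher and 10 lower values and a median of -0.17. ITPR1, GNA11 and ITPR2 were the most abundant; ITPR1, a calcium release channel of the endoplasmic reticulum, was at 188 and 228 CPM in WT, then 227 and 289 under leptin overexpression. Of 18 genes for receptor kinases, arrestins and other regulators of receptor activity, 16 were tested and 0 were called, with 8 values in each direction and a median of -0.03. MVK, mevalonate kinase, which is also known to bind LHCGR messenger RNA and hasten its decay, was at 60.2 and 250.4 CPM in WT, then 322 and 163 under leptin overexpression. The part of MVK in the values of LHCGR was not tested. RGS2, which shortens Gq signals, was the 1 gene of these 16 with an unadjusted edgeR p under 0.05, against 9.36% of all genes tested. It was at 39.6 and 79.2 CPM in WT, then 143 and 165 under leptin overexpression (difference 1.37 in log2, SE 0.44, edgeR adjusted p = 0.367). RGS5, the most abundant, is also a pericyte marker and overlapped between the genotypes.

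The JAK2 and STAT5 pathway after PRLR and GHR had 16 of 17 genes tested and 0 called, with 11 higher and 5 lower values and a median of 0.16. JAK2 itself was at 13.5 and 19.9 CPM in WT, then 18.9 and 33.0 under leptin overexpression. STAT5A was at 43.0 and 49.1 against 56.2 and 47.3 CPM, and STAT5B at 69.7 and 97.0 against 102 and 83.1 CPM. The genotypes overlapped for all 3. SOCS3, a feedback inhibitor and among the most abundant genes of the list, as was STAT3, was at 55.7 and 298 CPM in WT, then 479.5 and 131 under leptin overexpression. IGF1, a growth hormone target in liver, was at 1.81 and 2.03 CPM in WT, then 2.87 and 6.50 under leptin overexpression (difference 1.28 in log2, SE 0.69, edgeR adjusted p = 0.58).

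Thyroid hormone pathway genes had 15 of 21 tested and 0 called. Lower values were seen for 12 of the 15, as for THRA and THRB. The median was -0.41, against -0.01 over all genes tested. TRIP12, a ubiquitin ligase first known as a thyroid hormone receptor interactor, the coactivator subunit MED1 and the partner receptor RXRA were the most abundant. TRIP12 was at 208 and 171 CPM in WT, then 169 and 156 under leptin overexpression, RXRA at 75.9 and 101 against 73.0 and 32.7 CPM, and MED1 at 76.0 and 71.3 against 79.1 and 98.4 CPM. Only for MED1, of these 3, were both leptin overexpression values the higher. The groups did not overlap in the lower direction for 8 of 15 genes, against 22.9% of all genes; the list was not tested as a set, so nothing particular to it is read from this. CRYM, which binds thyroid hormone in the cytosol, was the 1 gene of 15 with an unadjusted edgeR p under 0.05, against 9.36% of all genes tested. It was at 28.8 and 9.67 CPM in WT, then 5.16 and 8.22 under leptin overexpression (difference -1.53 in log2, SE 0.58, edgeR adjusted p = 0.49). As with THRB, WT replicate 1 was the highest library for CRYM and for the summed surface epithelium markers (199 CPM); the part of these cells in the list was not tested. The deiodinase DIO2, which activates thyroid hormone, had 34 and 24 counts in WT and 5 and 32 under leptin overexpression.

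Of 22 genes known to be raised by the gonadotropins in follicle cells, 21 were tested and 0 called, with 13 higher and 8 lower values and a median of 0.16. STAR, CYP11A1 and HSD3B1, which carry out the first steps of progesterone synthesis, were the most abundant and had log2 fold changes of 0.86, 0.08 and 0.16. TNFAIP6, of the cumulus matrix, was the 1 gene of 21 with an unadjusted edgeR p under 0.05, against 9.36% of all genes tested. It was at 1.91 and 3.82 CPM in WT, then 13.5 and 29.9 under leptin overexpression (difference 2.93 in log2, SE 0.58, edgeR adjusted p = 0.209).

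**Figure D5:**
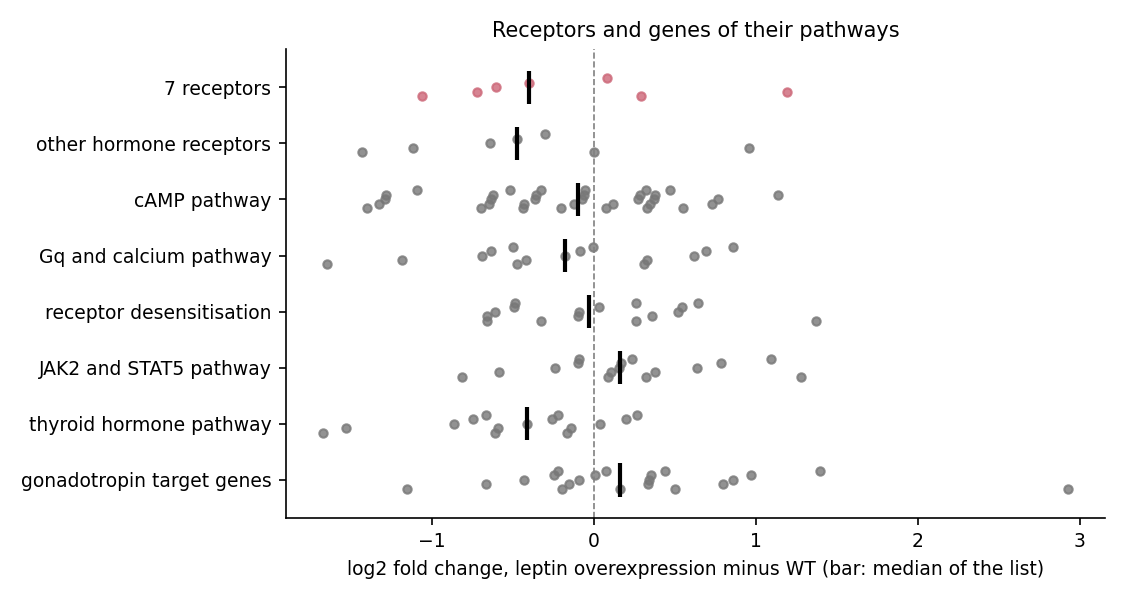
Log2 fold change (leptin overexpression minus WT) of each tested gene, for the 7 receptors and for lists of genes of their pathways; black bars are medians. The thyroid hormone pathway (12 of 15 genes below 0) has a median of -0.41, and the other hormone receptors have a median of -0.47. Over all genes tested the median is -0.01. The median of the 7 receptors (-0.40) is the value of OXTR. All lists hold values on both sides of 0.

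The genes whose pattern over the 4 libraries lay nearest to each receptor were found by the Euclidean distance of log2 CPM centred on each gene's mean, among 10455 genes with a mean of at least 5 CPM. For FSHR these were STRA6, CHGA and MFAP2, at distances of 0.55 to 0.62 on the log2 scale. For the other receptors the nearest genes lay closer: TMEM168, CYP4V2 and SUB1 for LHCGR (0.021 to 0.11), ARHGEF28, UBE2E3 and SOD2 for GHR (0.042 to 0.051), and ITGA1, NGDN and HSPBP1 for OXTR (0.037 to 0.086). PRLR was near to PGLYRP4 and LPIN1 (0.17 and 0.18), THRA to PANK4, SSBP3 and CASC3 (0.045 to 0.055) and THRB to GPC3, DSP and DUSP18 (0.11 to 0.17). With 4 libraries, each match is a description only. LPIN1, a phosphatidate phosphatase, was at 14.9 and 106.5 CPM in WT, then 54.9 and 29.8 under leptin overexpression, which repeats the order of the libraries seen for PRLR. STRA6, a retinol transporter, was at 8.76 and 2.80 CPM in WT, then 17.0 and 4.03 under leptin overexpression, with leptin overexpression replicate 1 the highest as for FSHR.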

How the data were processed

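The members and the gene lists were chosen with earlier results of these data known. The deposited expected counts per gene, estimated counts per the file headers and without depth scaling, were rounded to whole numbers; the deposited FPKM values were made by the authors. The submitters' processing notes name, without roles, RSEM, HISAT2, DESeq2, edgeR 3.32.0, StringTie 1.3.1, Bowtie2 2.2.8 and fastp 0.18.0. For the genome build: not given in the sources used here. Columns named for controls were taken as the WT samples of the same number. Of 270 list entries 258 matched a row; GNAS had 2 rows and the Ensembl row with more counts was used.

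Libraries held 16493113 to 16797511 counts. After filterByExpr (13937 genes kept, 8372 removed) and TMM scaling, WT and leptin overexpression entered the quasi-likelihood test of edgeR 4.0.16 (R 4.3.3, robust, genotype only, 2 residual degrees of freedom, Benjamini-Hochberg adjustment over all genes tested). All adjusted p-values are from it unless another tool is named. The SE of a log2 fold change is its size over the root of the F statistic. The test was run on simulated data with known changes first. Those changes were larger than the differences of the receptors, so the run does not show how readily differences of their size are found. Lists were described by counts and medians, with no set test.

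Named were all members, the 3 most abundant tested genes per list and those past the threshold, summed markers, and the 3 nearest patterns per member; 2 genes this rule names are not reported here. Genes with an unadjusted p under 0.05, genes overlapping a receptor, JAK2, STAT5A, STAT5B, IGF1, DIO2 and ligands were named after their values were seen. So were the single granulosa markers, EPCAM and KIT. Alternative settings changed the scaling (RLE, upper-quartile), the filter (none, or at least 1 CPM in 2 samples), the tool (limma-voom from limma 3.58.1, DESeq2 1.42.0) or the unit (limma-trend on log2(FPKM + 1) and log2(FPKM + 0.1)). Others added a replicate block or dropped a library. A dropped library leaves 1 sample in its group, assumed to vary like the other group.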

Additional observations from a re-analysis of the deposited data

How the results depend on the processing

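Under 13 alternatives each, 0 of the 7 receptors passed the threshold. FSHR, THRA and THRB kept their direction in all 13. LHCGR was reversed with upper-quartile factors (-0.033) and on log2(FPKM + 1) and log2(FPKM + 0.1) (-0.39 and -0.41), GHR on the same FPKM scales (-0.13 and -0.16), where the median of all genes was -0.30 and -0.40, and PRLR with limma-voom (0.11); the median was -0.11 with upper-quartile factors. Without each library in turn, log2 fold changes ran from -0.41 to 0.46 for LHCGR, -1.58 to 1.53 for PRLR, -0.77 to 0.015 for OXTR (positive without WT replicate 1), 0.16 to 1.94 for FSHR, 0.16 to 0.40 for GHR, -0.92 to -0.34 for THRA and -1.43 to -0.71 for THRB. The cause of these reversals was not tested.

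Over all genes, 4 were called higher and 0 lower; the counts were 7 and 4 with upper-quartile factors, 84 and 168 with no filter (17884 genes tested), 100 and 205 with DESeq2, 1 and 0 with limma-voom, 90 and 374 on log2(FPKM + 1), 89 and 398 on log2(FPKM + 0.1), and, without each library in turn, 0 to 239 higher and 0 to 364 lower. Without a leptin overexpression library the counts were 1 and 0 (replicate 1) or 0 and 0 (replicate 2); leaving out WT replicate 1 gave 55 and 90. With the replicate number as a block 11 were higher and 12 lower. Same-numbered libraries did not deviate together from their group means (correlation -0.0995 over genes). With 2 libraries per group this is a single comparison, so it cannot decide if the numbers pair the samples. The log2 fold change of PRLR, furthest from its value without the block, was -0.10 with it. With 2 libraries per group, for the 7 receptors the 95% intervals reached beyond 0 on both sides. Depth limits the low receptors: at 15 counts in WT replicate 1, the counting interval of PRLR ran from 0.381 to 1.12 CPM.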
